A study of Mus musculus with 2 samples.

Results

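Krüppel-like factors are transcription factors that bind CACCC and GC-rich DNA through zinc fingers at the end of the protein, and 10 genes of this family were followed here across 2 oligonucleotide arrays. They were Klf2, Klf3, Klf4, Klf5, Klf6, Klf8, Klf9, Klf10, Klf12 and Klf13, each measured by 1 probeset assigned to that gene alone, among 19938 genes measured in all. One array held RNA of mouse embryonic stem cells (i-OSKM-ESC) 24 hours after doxycycline was added at 4 µg/mL, and the other held RNA of the same line refed with drug-free medium. The line has a strain 129 background and was engineered from KH2 cells, which carry a doxycycline-dependent transactivator. Both cultures grew on gelatin and both carry the switchable transgenes for Oct4, Sox2 (with an epitope tag), Klf4 and c-Myc, which received no inducer in the control cells. With 1 array per group there is no replicate error and no test, and the precision is limited by the number of arrays. Drug-treated parental cells were not analysed here, and effects of doxycycline and of the factors cannot be told apart. In a bulk sample, fewer cells of a type and less RNA per cell cannot be told apart either.

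In mouse embryonic stem cells Klf2, Klf4 and Klf5 help to keep the naive, preimplantation-like state. Klf4 and Klf5 act downstream of the cytokine LIF and its effector Stat3, Klf2 acts downstream of Oct4, and Klf4 is the family member used to reprogram somatic cells. The family divides by partner proteins into factors that mostly activate transcription (Klf2, Klf4, Klf5 and Klf6), repressors that recruit the corepressor CtBP (Klf3, Klf8 and Klf12) and repressors that recruit Sin3 (Klf9, Klf10 and Klf13). Members also regulate one another: in mouse erythroid cells Klf1 activates Klf3 and Klf8, and Klf3 represses Klf8.

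Family members are known to bind promoters of other members, and the upstream windows of Klf4 and of the 2-fold different members present in the sequence table are shown, with that of Klf12 added after its matches were seen. Each is the 250 bases before an annotated start, from RefSeq (GRCm38.p6), written 5′ to 3′ on the gene's strand. Capitals mark matches, on either strand, to a Krüppel motif (GGGTGNGG), a GC box (GGGCGG), an E-box bound by Myc (CACGTG), a STAT motif (TTCNNNGAA) or the octamer bound by Oct4 (ATGCAAAT). The table held windows for 8 of the 10 genes, 9 windows in all, since Klf8 has 2 annotated starts. The other 2 genes are Klf5 and Klf10.
Klf2, chr8:72318812-72319061, plus strand: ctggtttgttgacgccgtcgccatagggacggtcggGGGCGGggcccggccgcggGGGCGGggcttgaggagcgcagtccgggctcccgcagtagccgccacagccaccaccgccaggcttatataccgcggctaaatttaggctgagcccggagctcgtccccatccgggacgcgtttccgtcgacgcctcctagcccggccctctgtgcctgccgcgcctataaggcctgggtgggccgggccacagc
Klf4, chr4:55532476-55532725, minus strand: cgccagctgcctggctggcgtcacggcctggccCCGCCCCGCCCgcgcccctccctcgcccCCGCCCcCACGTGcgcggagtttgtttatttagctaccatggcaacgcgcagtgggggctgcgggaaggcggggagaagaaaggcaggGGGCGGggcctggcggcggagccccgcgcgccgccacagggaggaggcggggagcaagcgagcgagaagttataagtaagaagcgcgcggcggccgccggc
Klf6, chr13:5861239-5861488, plus strand: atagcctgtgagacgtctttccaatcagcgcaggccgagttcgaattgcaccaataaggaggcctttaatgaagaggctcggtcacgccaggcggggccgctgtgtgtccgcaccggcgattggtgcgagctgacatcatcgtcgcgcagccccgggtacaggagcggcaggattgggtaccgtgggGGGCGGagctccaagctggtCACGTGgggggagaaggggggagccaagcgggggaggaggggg
Klf3, chr5:64803271-64803520, plus strand: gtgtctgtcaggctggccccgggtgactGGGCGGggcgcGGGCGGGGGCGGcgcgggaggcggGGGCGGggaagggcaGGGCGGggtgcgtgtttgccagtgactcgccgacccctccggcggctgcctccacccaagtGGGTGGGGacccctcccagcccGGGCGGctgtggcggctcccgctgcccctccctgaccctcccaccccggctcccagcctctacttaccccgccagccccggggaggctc
Klf8, start 1, chrX:153237498-153237747, plus strand: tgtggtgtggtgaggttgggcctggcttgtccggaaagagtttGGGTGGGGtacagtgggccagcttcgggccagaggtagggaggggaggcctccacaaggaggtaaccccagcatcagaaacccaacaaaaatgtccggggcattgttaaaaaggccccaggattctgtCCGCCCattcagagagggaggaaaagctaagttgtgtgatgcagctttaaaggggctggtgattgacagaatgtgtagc
Klf8, start 2, chrX:153359363-153359612, plus strand: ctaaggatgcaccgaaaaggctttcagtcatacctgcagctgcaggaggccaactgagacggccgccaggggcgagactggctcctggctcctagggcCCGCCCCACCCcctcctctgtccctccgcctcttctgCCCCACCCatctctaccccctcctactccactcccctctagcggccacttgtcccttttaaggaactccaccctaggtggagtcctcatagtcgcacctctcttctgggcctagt
Klf12, chr14:100149797-100150046, minus strand: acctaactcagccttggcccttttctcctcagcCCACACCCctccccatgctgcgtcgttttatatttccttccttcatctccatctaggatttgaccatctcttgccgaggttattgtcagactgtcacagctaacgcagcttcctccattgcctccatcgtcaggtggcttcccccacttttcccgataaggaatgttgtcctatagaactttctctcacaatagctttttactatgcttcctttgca

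A Krüppel motif occurred in 4 of the 9 windows, against 14.9% of the 32851 windows of the whole table. The 4 windows were those of Klf3, of Klf8 at both starts and of Klf12, the CtBP-binding repressors. In Klf3 the match began 111 bases before the start, in Klf8 it began 207 bases before start 1 and both 149 and 115 bases before start 2, and in Klf12 it began 217 bases before the start. The first match at start 2 of Klf8 overlapped a GC box. The windows of Klf2, Klf4, Klf6, Klf9 and Klf13 held no Krüppel motif. GC boxes occurred in 7 of the 9 windows (32.7% of all windows), with 6 in Klf3, 4 in Klf4, 3 in Klf13, 2 in Klf2 and 1 each in Klf6 and at each start of Klf8. An E-box stood in the windows of Klf4 and Klf6 (6.02% of all windows), 182 and 43 bases before their starts. The STAT motif occurred in Klf9 (7.02% of all windows), and the octamer in 0 of the 9 (1.60% of all windows). The G and C content of the 9 windows ran from 48% in Klf12 to 78.4% in Klf3. The shares over all windows were not matched for this content, so the counts are not shown to exceed it. A match is a description of these letters, and the arrays measured no binding.

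**Figure D1:**
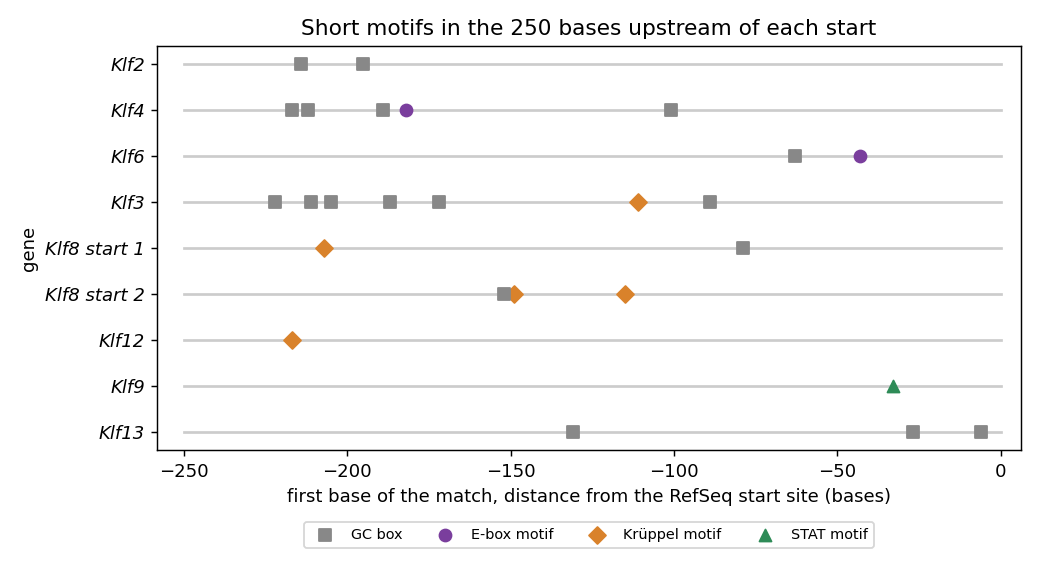
Positions of motif matches in the 9 windows of 250 bases before RefSeq starts; the horizontal axis is the distance of the first matching base from the start, in bases, and each row is 1 window. Orange diamonds (Krüppel motif) lie in the rows of Klf3, Klf8 and Klf12.

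The 4 induced factors were read first, as a check of the labels. Klf4 had a log2 value of 9.34 in the array labelled plus doxycycline and 8.91 in the array labelled no doxycycline, a 1.34-fold difference. Pou5f1, which encodes Oct4, was 1.33-fold and Myc 1.28-fold higher with doxycycline, whereas Sox2 was 2.01-fold lower, or -0.996 on the log2 scale with an offset of 32 and so just under 2-fold. The Sox2 value is thus opposite in direction to the induction named in the labels. The sources used here do not say which of the 4 probesets read the transgenes. A probeset that does so may also read the gene of the cells themselves. The Sox2 value therefore neither bears out nor contradicts the labels. Directions are given as the arrays are labelled.

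Of the 10 factors, 5 differed at least 2-fold, 3 of them lower (Klf2, Klf5 and Klf6) and 2 higher (Klf3 and Klf8) in the array labelled plus doxycycline. Klf6 counts among them only at the line: its value with doxycycline lay below the expression filter, and its call was lost with quantile normalization and with offsets of 16, 32 and 64 on the linear scale, which left 2 lower members. The background is 1.69% of the 11191 genes whose higher value reached the median of all values (log2 6.48), the expression filter used throughout. In single directions it is 0.768% lower and 0.920% higher. All 10 factors passed this filter, 7 of their differences were positive and 3 negative, and their median log2 difference was 0.13, against -0.03 over the genes passing the filter. Without sign, the median log2 difference of the 10 was 0.91, against 0.17 over the same genes. The 10 genes were chosen with earlier results of these arrays known, so these counts describe them and do not show that the family stands apart. The remaining 7 family genes gave 0 differences of 2-fold among the 5 that passed the filter. They were left out by that same choice, so they are no independent comparison group.

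**Figure D2:**
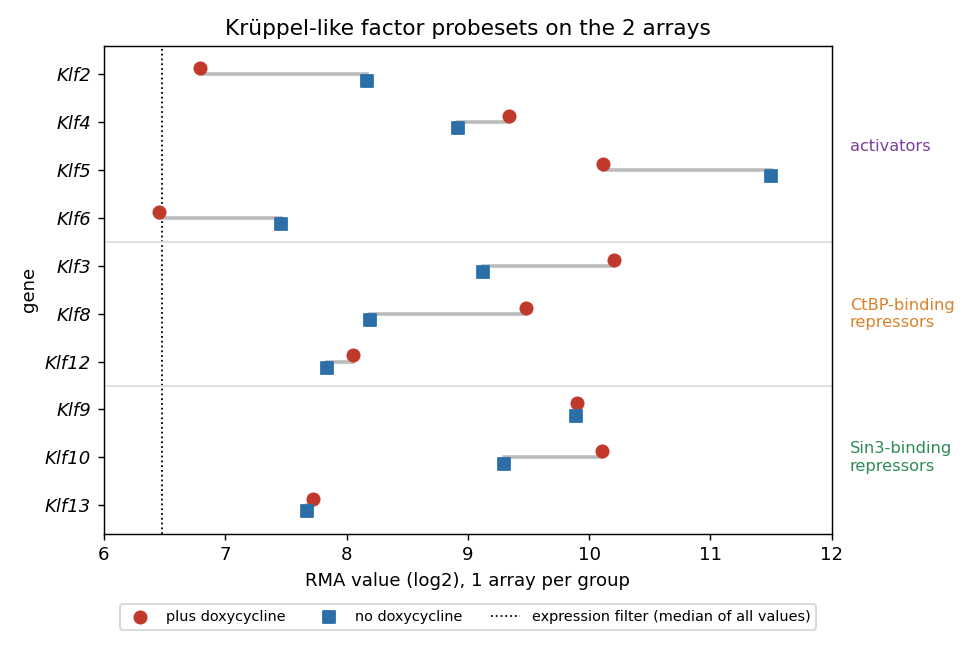
RMA values (log2, horizontal axis) of the 10 genes, plus doxycycline as red circles and no doxycycline as blue squares, 1 array each, with the expression filter as a dotted line at 6.48. The red circle lies left of the blue square in Klf2, Klf5 and Klf6 and right of it in Klf3, Klf4, Klf8, Klf10 and Klf12; brightness is not comparable between genes, because each has its own probes.

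Among the activators, Klf5 and Klf2 were lower by nearly the same amount. Klf5, an activator of embryonic stem cell self-renewal and of epithelial growth, had 10.12 in the array labelled plus doxycycline and 11.50 in the array labelled no doxycycline, 2.61-fold lower. It had the lowest difference of the 789 genes whose mean value lay within 0.5 log2 units of its own. Klf2, a factor also known from endothelium and resting T cells, had 6.79 against 8.17 without the drug and was 2.60-fold lower. Only 3 of 2908 genes of like brightness, Klf2 included, were as far down. Klf2 ended 0.31 log2 units above the filter, where background makes up more of the signal, and with 32 units added to every linear signal its log2 difference was -1.16 in place of -1.38.

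Klf6, a growth-restraining factor found in many tissues, had 6.45 in the array labelled plus doxycycline and 7.46 in the array labelled no doxycycline. Its log2 difference of -1.01 sat at the 2-fold line. It passed the filter only through the array without doxycycline, and with the offset of 32 the difference was -0.80, no longer 2-fold. After quantile normalization it was -0.99. Klf6 is thus the one of the 3 lower genes whose 2-fold call was lost with each of these changes. Its value with doxycycline lay below the filter and cannot be told from background, so the size of the difference is uncertain.

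Klf4 was the single activator among the 10 with a positive difference. Its log2 difference of 0.43 stayed between 0.38 and 0.48 over the 6 settings that recomputed it. A difference at least this high was found in 704 of the 11191 genes (6.29%), and in 93 of 2241 genes of like brightness. Under labels that name Klf4 as induced, its probeset moved less than those of Klf3, Klf8 and Klf10. Klf7, a neuronal activator outside the 10, had 8.02 with doxycycline and 8.61 without, a difference of -0.59. Klf1, the erythroid activator, had 5.61 with doxycycline and 5.75 without, both below the filter.

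Of the 3 CtBP-binding repressors, 2 were at least 2-fold higher. Klf8, which represses E-cadherin in human epithelial cells, had 9.48 in the array labelled plus doxycycline and 8.19 in the array labelled no doxycycline, 2.44-fold higher. Of 2529 genes of like brightness, 11 were as far up. Klf3, the basic Krüppel-like factor of blood and fat cells, had 10.20 against 9.13 without the drug and was 2.10-fold higher, and 7 of 1748 genes of like brightness were as far up. Klf3 kept a difference of 1.03 with the offset of 32 and had 0.993 with an offset of 64, an alternative added after the data were seen. Klf12, a repressor of the AP-2 gene Tfap2a, had 8.06 with doxycycline and 7.84 without, a difference of 0.22 that 1882 of the 11191 genes equalled or passed.

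Of the 3 Sin3-binding repressors among the 10, 0 differed 2-fold, and Klf10 had the highest difference of them. Klf10, an early target of TGF-beta that restrains growth, had 10.11 in the array labelled plus doxycycline and 9.30 in the array labelled no doxycycline, 1.76-fold higher. As far up as Klf10 were 14 of 1709 genes of like brightness, and at a threshold of 1.5-fold it joined Klf3 and Klf8, so that 3 members were higher, against a background of 3.24% of genes. Klf9, induced by thyroid hormone and glucocorticoids in other tissues, had 9.90 with doxycycline and 9.89 without. Klf13, known for driving the chemokine gene Ccl5 in T cells, had 7.72 with doxycycline and 7.67 without. Both of these differences, 0.01 for Klf9 and 0.05 for Klf13, were smaller than 0.17, the SD between probesets of one gene over the 492 genes with 2 probesets passing the filter. Outside the 10, Klf14 had a difference of 0.42, Klf16 of 0.32 and Klf11, the close relative of Klf10, of 0.09.

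Laid over all 17 measured family genes, the partner classes had these values. The 6 activators had a median of -0.80, with differences from -1.38 for Klf5 to 0.43 for Klf4, and Klf1 lay below the filter. The 3 CtBP-binding genes had a median of 1.07, from 0.22 for Klf12 to 1.29 for Klf8. The 6 Sin3-binding genes had a median of 0.21, from 0.01 for Klf9 to 0.81 for Klf10. Differences of Klf1, Klf9, Klf11 and Klf13 were smaller than the 0.17 SD between probesets of one gene, so no direction is read from their signs. That SD comes from this same pair of arrays and holds no error between arrays or cultures. A difference above it is therefore not shown to have a reliable direction either. Among all genes passing the filter, 4969 of 11191 differences were positive. Klf15 and Klf17, which were put in none of these classes, had 0.08 and 0.04, both also smaller than the 0.17 SD. Klf17 lay below the filter. The classes are textbook groups that were laid over the family after its values were known, and the comparison between them was not tested.

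**Figure D3:**
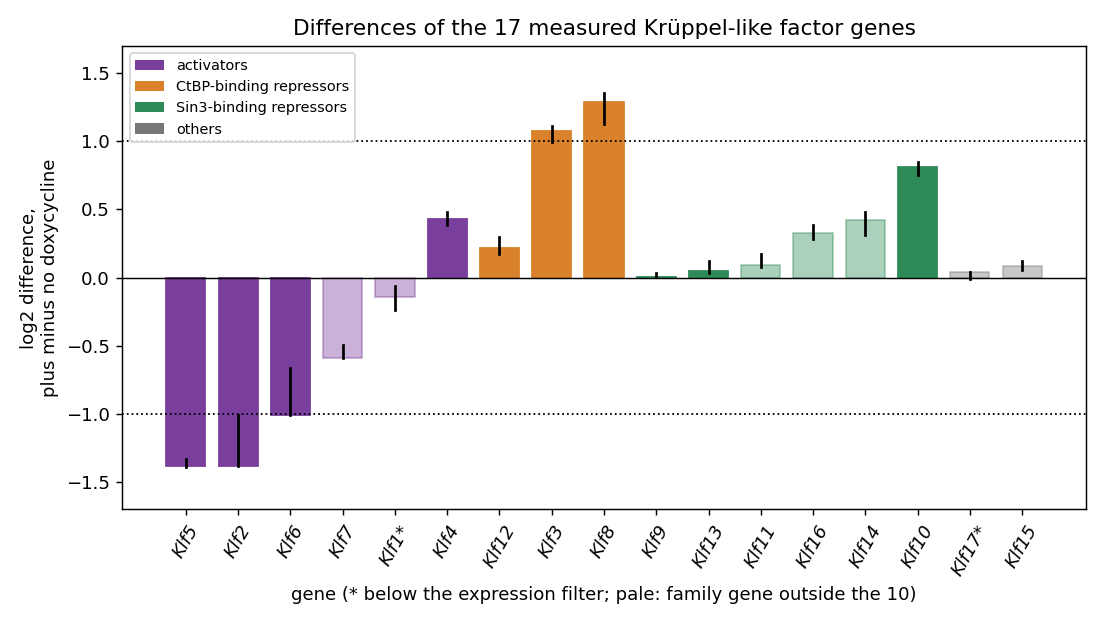
Log2 differences, plus doxycycline minus no doxycycline, of the 17 measured Krüppel-like factor genes, coloured by partner class, with dotted lines at 2-fold. Black lines span the values over 6 other settings and are not replicate errors; Klf5, Klf2 and Klf6 reach the lower dotted line, and Klf3 and Klf8 pass the upper one.

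**Figure D4:**
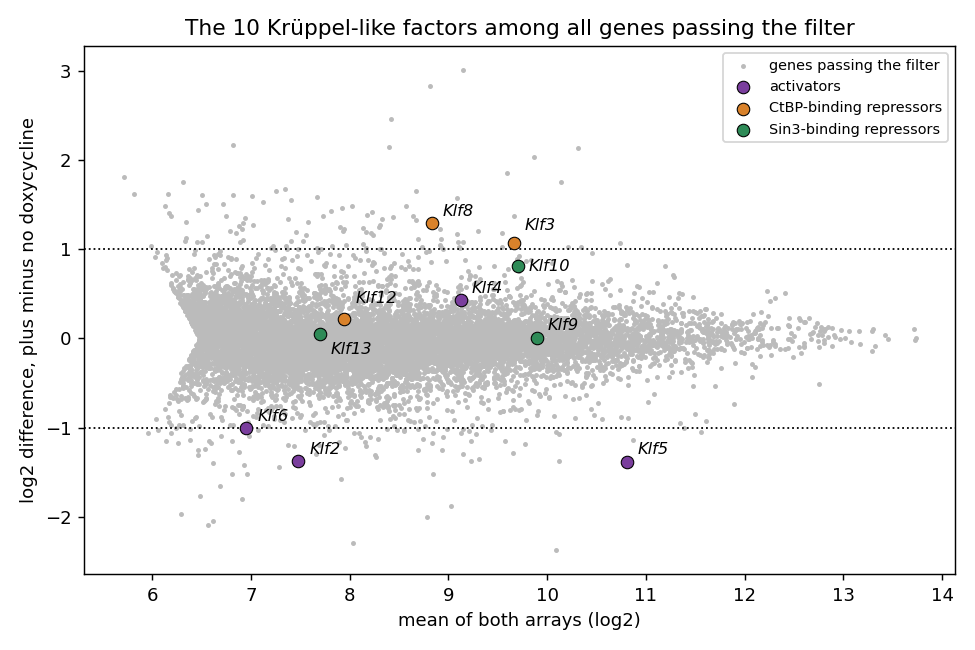
Mean of both arrays (log2, horizontal) against the log2 difference (vertical) for the 11191 genes passing the filter (grey) and the 10 Krüppel-like factors (coloured by partner class). Klf5 at -1.38 lies below every grey point of like brightness, while Klf9 and Klf13 lie inside the cloud.

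Klf5 and Klf12 are adjacent on chromosome 14, with 0 measured protein-coding genes between them in the RefSeq gene order, yet had differences of -1.38 and 0.22. Taking the 2 nearest measured protein-coding genes on each side of every factor, chosen by position after the factors' values were known, gave 36 other genes. Of the 23 that passed the filter, 1 differed 2-fold, against the background of 1.69%. It was Cemip2 near Klf9, with 7.10 in the array labelled plus doxycycline and 8.29 in the array labelled no doxycycline. Cemip2 encodes a hyaluronan-degrading enzyme. The median of the 36 was 0.04. Beside Klf2 lay Ap1m1 at -0.09 and Eps15l1 at 0.31, and beside Klf8 lay Rragb at -0.63 and Ubqln2 at 0.15.

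Genes that feed into the family were examined next, with the counts of 2-fold genes to be read against the 1.69% background. The LIF-Stat3 list, which covers the pathway upstream of Klf4 and Klf5, had a median difference of -0.23 over 9 measured genes, 6 of them negative, and 0 of the 7 passing the filter were 2-fold different. Negative differences were also found in 6215 of the 11191 genes passing the filter. The LIF receptor gene Lifr had 8.99 in the array labelled plus doxycycline and 9.71 in the array labelled no doxycycline. Stat3 itself had 9.28 with doxycycline and 9.89 without, a difference of -0.61, the co-receptor gene Il6st had a difference of -0.42 and the kinase gene Jak1 of -0.23. The other passing genes of the list had small differences, Socs3 of 0.08, Ptpn11 of 0.10 and Tyk2 of -0.0045. Klf5 and Klf4, which share this input, had opposite signs, at -1.38 and 0.43. Klf4 is also an induced factor whose probeset may read the transgene, so its value need not be that of the LIF-responsive gene.

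The ERK and ERK5 list holds the kinases that act on Klf2, ERK5 doing so through Mef2 factors in endothelium. It had a median of -0.13 over 10 measured genes of 12, with 0 of 9 passing genes 2-fold different. The ERK feedback inhibitors differed in sign, Dusp6 at -0.89 and Spry2 at -0.84 against Spry4 at 0.71, and the kinase gene Map2k1 had 0.60. In the TGF-beta list, the input of Klf10, the median was -0.05 over 8 measured genes of 9. Its single 2-fold gene was Smad7, the inhibitory Smad that Klf10 is known to repress, with 9.01 in the array labelled plus doxycycline and 10.30 in the array labelled no doxycycline. The ligand gene Tgfb1 had a difference of 0.42, Skil of 0.16 and the receptor gene Tgfbr1 of -0.16.

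Partner and turnover genes gave no 2-fold difference. The 10 corepressors and coactivators all passed the filter, 0 were 2-fold different and their median was -0.12. Kat2b, an acetyltransferase, had -0.76, Hdac2 had 0.30, Ep300 had -0.20 and Crebbp had -0.17. The CtBP genes Ctbp1 and Ctbp2, given because Klf3 and Klf8 use their products, had -0.08 and -0.13. Among the 6 ubiquitin ligase genes known to act on family proteins (median -0.01, 0 of 4 passing genes 2-fold different), Smurf1 had 0.54, Btrc -0.13, Vhl 0.13 and Wwp1, a ligase of Klf2 and Klf5, 0.12. The Sp factors, the nearest relatives of the family by their zinc fingers, had a median of 0.04 over 8 measured genes of 9, with 0 of 4 passing genes 2-fold different. Sp4 had -0.76, Sp9 -0.18, Sp3 0.11 and Sp1 -0.03.

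The naive network, whose genes are regulated together with or by Klf2, Klf4 and Klf5, had a median of -0.44 over 18 genes, 14 of them negative. Among the 11191 genes passing the filter, 6215 differences were negative, and over all 19938 genes 9627 were. Of the 17 naive network genes that passed the filter, 3 were 2-fold lower and 1 was 2-fold higher. The shares over all genes passing the filter were 0.768% lower and 0.920% higher. The list was chosen with earlier results of these arrays known, so its counts describe it only. Mycn, the Myc relative of embryonic stem cells, had 8.54 in the array labelled plus doxycycline and 9.91 in the array labelled no doxycycline. Fbxo15, long used as a reporter of the embryonic stem cell state, had 8.06 against 9.31 without the drug. Gbx2, a homeobox gene that sustains self-renewal, had 8.25 against 9.42 without the drug. Tcl1, a coactivator of Akt kinase, was the higher one, with 9.90 against 8.70 without the drug. Nanog, given because it is a known target of all 3 factors, had 12.06 with doxycycline and 12.18 without. Published targets of single family members gave a median of 0.08 over 11 measured genes of 14, and 0 of the 6 passing genes were 2-fold different. Lgals3 had 0.86, the E-cadherin gene Cdh1 -0.37, Nos3 0.28 and Odc1 0.21, while Ccl5 and Tfap2a, targets of Klf13 and Klf12, lay below the filter in both arrays.

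**Figure D5:**
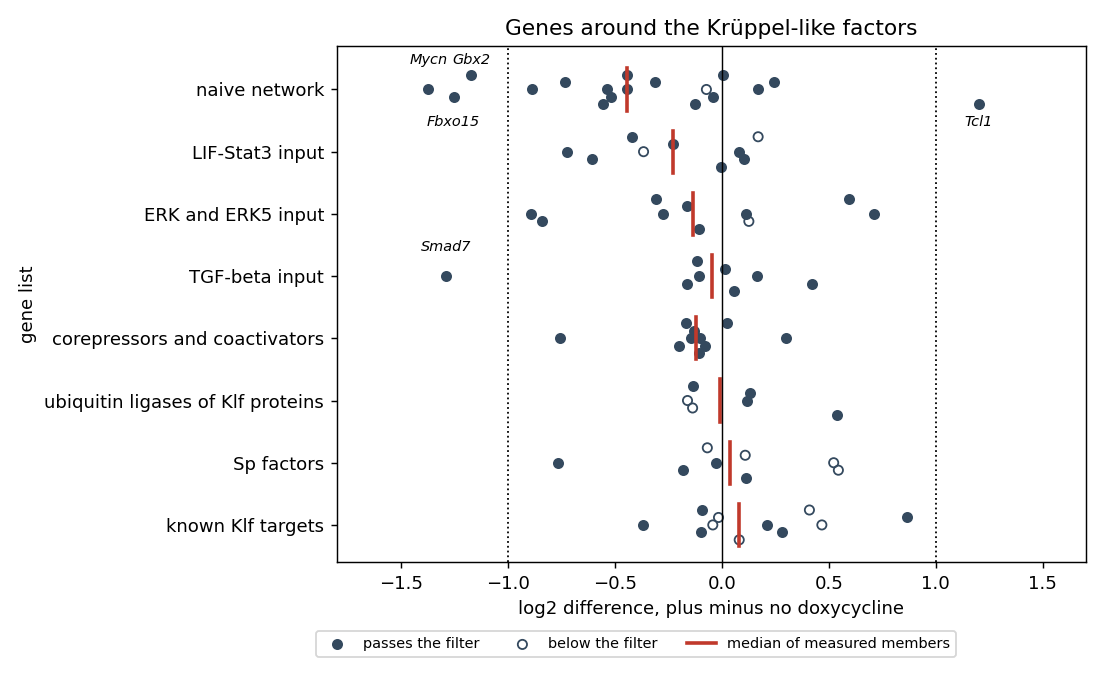
Log2 differences, plus doxycycline minus no doxycycline, of the measured genes of 8 lists; filled points passed the expression filter, red bars are list medians and dotted lines mark 2-fold. The naive network has its median at -0.44 and 4 genes beyond 2-fold, and Smad7 is the other labelled gene.

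Marker genes give the makeup of the cultures as far as these arrays show it. Of 8 embryonic stem cell markers 7 passed the filter, 6 had negative differences and the median was -0.44. Nanog, Esrrb, Zfp42 and Dppa5a also belong to the naive network list. Both medians of -0.44 are the midpoint of the same pair, Esrrb and Zfp42, so they are not separate observations. Sox2 (-1.01), Utf1 (-0.95), Dppa5a (-0.52) and Esrrb (-0.44) were the most different of the 8 markers. Zfp42 had -0.44 and Nanog -0.13, while Pou5f1 had 0.41 and Fut4, below the filter, 0.23. Sox2 and Pou5f1 are also induced factors, and the sources used here do not say whether their probesets read the transgenes. The summed linear signal of the embryonic stem cell markers was 14.44 on the log2 scale with doxycycline and 14.79 without. Feeder fibroblast markers had a median of 0.27 over 8 genes and 0 of 5 passing genes 2-fold different. Col1a2 had 0.50, Col1a1 0.45, Acta2 0.42 and Thy1 0.27. Col3a1, which also passed the filter, had -0.07, the only negative difference of the 8. The summed signal of the fibroblast markers was 9.59 with doxycycline and 9.27 without, and Dcn, Lum and Postn lay below the filter in both arrays. Of 6 trophectoderm markers, Krt8 was 2-fold higher (1.75), Krt18 had 0.08 and Eomes -0.24, while Cdx2, Gata3 and Elf5 lay below the filter. The median of that list was -0.0047, with 3 positive and 3 negative differences, and its summed signal, 11.30 with doxycycline and 10.08 without, is mostly that of Krt8 (11.02 with doxycycline and 9.27 without). Primitive endoderm markers had 0 of 5 genes 2-fold different (Gata4 0.24, Foxa2 -0.24, Sox17 -0.18, Gata6 -0.18; sums 9.45 with doxycycline and 9.50 without). In the endothelial list only Tek (0.81) passed the filter among 4 genes (sums 8.43 with and 7.96 without doxycycline). Tie1 (0.50), Kdr (0.05) and Cdh5 (-0.004) lay below it. In the keratinocyte list only Sfn (0.81) passed the filter among 6 genes. The keratinocyte median was 0.15, and the summed signal of 10.28 with doxycycline and 9.66 without is mostly that of Sfn (9.87 with doxycycline and 9.06 without). The part of these marker shifts in the differences of the Krüppel-like factors was not tested.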

How the data were processed

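Values are the log2 signals the authors deposited for 35556 probesets, made with Affymetrix Expression Console and RMA per the submitters' processing notes. The sources used here give neither tool versions nor a genome build. RMA makes the arrays' distributions alike, which hides a shift common to most transcripts, and it compresses the fold changes of dim transcripts. Platform annotation gave 21789 probesets exactly 1 gene, and a gene's value was their mean. Of the 1621 probesets listing several genes, 0 listed a member.

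The log2 difference is plus doxycycline minus no doxycycline, with no test. A gene was called when its higher value reached the median of all values and it differed at least 2-fold. Genes of like brightness passed this filter and had means within 0.5 log2 units. Promoters and gene order came from RefSeq, GRCm38.p6. Protein sequences planned for comparison were not used here.

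The members and 16 gene lists were chosen with earlier results of these data known. The naming rule took all 10 members, the induced factors, all 2-fold genes of each list and its most different genes up to 4. Other genes named (Ctbp1, Ctbp2, Socs3, Ptpn11, Tyk2, Nanog, Zfp42, Col3a1, Ccl5, Tfap2a, Klf1, Klf15, Klf17, markers below the filter and neighbours) were added after their values were seen. Alternatives were other filters, a 1.5-fold threshold, the brightest probeset, quantile normalization, loess centring (fraction 0.3) and linear offsets. The steps were tested on simulated data. The software was Python 3.11.15 with NumPy 2.4.6 and pandas 2.3.3; loess came from statsmodels 0.14.6 and the plots from matplotlib 3.10.9.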

Additional observations from a re-analysis of the deposited data

How the results depend on the processing

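No paired analysis was possible because each group has 1 array and the labels share a single replicate number. The 2-fold calls of Klf2, Klf5, Klf3 and Klf8 held without a filter, with the brightest probeset, quantile normalization, loess centring and offsets of 16 and 32. Klf6 was lost with quantile normalization and with every offset, and Klf3 with the offset of 64, which left 1 higher member. A stricter filter at the 75th percentile (log2 8.25) kept 6 members, with 1 lower member, since Klf2 and Klf6 fell below it, and a median difference of 0.62. Over all genes, that filter left 57 higher and 52 lower of the 5745 tested, the 1.5-fold threshold gave 363 and 425, the offset of 32 gave 66 and 49, and that of 64 gave 39 and 30, against 103 and 86. Among the named genes with a 2-fold call, no sign turned in the settings that recomputed differences, but Sox2 fell under 2-fold with offsets of 32 (-0.996) and 64 (-0.984). The offsets of 16 and 64 were chosen after seeing the data. The arrays give no detection call, so values near the filter, such as Klf6 with doxycycline, cannot be told from background.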
